A study of Bos taurus with 29 samples.

Results

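Integrins are the cell surface receptors through which keratinocytes hold on to the basement membrane and crawl over a wound bed. The transcripts of 8 integrin subunits of epidermis and wound repair, ITGA3, ITGA5, ITGA6, ITGAV, ITGB1, ITGB3, ITGB4 and ITGB6, were followed through the stages of bovine digital dermatitis, an infectious disease of the skin of the foot in dairy cattle. The subunits were taken by their gene symbols from the 11479 genes listed in at least 1 of 5 deposited tables, each of which sets 1 lesion stage against the same control skin. All 8 subunits are listed in all 5 tables, as are 10629 genes in all.

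The 29 punch biopsies came from Holstein-Friesian cattle and were profiled with a kit that sequences only the 3′ ends of messenger RNA. Lesions of stage M1 (early, 5 libraries), M2 (acute ulcer, 5), M3 (healing, 5), M4 (chronic, 5) and M4.1 (chronic with a renewed active spot, 4) were compared with M0 control skin (5). The M0 skin was sampled above the interdigital cleft from slaughtered animals. Of the lesions, 22 were taken on 6 farms and 2 of the M1 lesions, which the labels do not single out, at the slaughterhouse. Body site, place of sampling and disease therefore cannot be told apart in any comparison with M0. In M1 the 2 slaughterhouse lesions could not be set apart either. No animal, age, sex or farm is given per library, so p-values measure the spread between samples.

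An integrin is a pair of an alpha and a beta chain. ITGB1 is the common beta chain and pairs with ITGA3 and ITGA6 into laminin receptors, with ITGA5 into the main fibronectin receptor, and with ITGAV. ITGA6 also pairs with ITGB4 into the core of the hemidesmosome, the rivet that ties basal keratinocytes through plectin and the bullous pemphigoid antigens to laminin in the basement membrane. ITGAV with ITGB6 is an epithelial receptor known to appear at wound edges and to release active TGF-beta, and ITGAV with ITGB3 is a vitronectin receptor known from newly forming vessels, smooth muscle and bone-resorbing cells. No protein was measured here.

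Library totals over the joined genes ran from 2858186 to 5399615 counts. Levels are CPM values, counts divided by a TMM-adjusted library total so that libraries of different depth can be compared (TMM factors 0.631 to 1.29). The libraries carried epidermal transcripts throughout, with 26009 to 55503 CPM summed over 6 basal keratinocyte markers in the 24 lesion libraries, against 8373 to 11357 CPM in M0. Nearly all of that sum is KRT5 and KRT14, keratins of basal cells. Of the 6 markers, 3 or 4 were called higher in each stage and 1 or 2 lower, beside 20.2% to 21.9% and 18.9% to 21.1% of all genes. KRT15, another basal keratin, was lower in all 5 stages, with group means of 4.54 to 8.07 CPM in lesions, against 349 CPM in M0. Over 9 gland and hair follicle keratins and lipid genes the sums were 417 to 1266 CPM in lesions, against 5024 to 5735 CPM in M0. These composition shifts accompany every comparison with M0, and their part in the integrin values was not tested. In a bulk biopsy, fewer cells of a type and less RNA per cell cannot be told apart.

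Of the 8 subunits, 7 entered a joint edgeR quasi-likelihood fit of 10371 genes in all 29 libraries. ITGAV, with 1 to 18 counts per library, was left out by the filter on low counts and was tested in the same fit without a filter. A gene is called at an adjusted p (Benjamini-Hochberg over all genes tested) under 0.05. ITGB6 reached 10 counts in 14 libraries, 0 of them M0, so it passed the filter through the lesions and was bound to differ in that direction.

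In M1, 3 of 7 tested subunits were called higher and 0 lower, where 21.9% of all genes were called higher, 21.1% lower and 43.0% either way. In M2, 4 were higher and 0 lower, beside 21.7%, 20.5% and 42.2% of all genes. In M3, 2 were higher and 1 lower, beside 20.4%, 19% and 39.4%. In M4, 2 were higher and 1 lower, beside 21.3%, 21.1% and 42.4%. In M4.1, 3 were higher and 0 lower, beside 20.2%, 18.9% and 39.2%. The share of subunits called either way was thus near that of all genes. More subunits were called higher than lower in every stage, where the shares over all genes were nearly equal. With 7 subunits, the counts by themselves say nothing particular about integrins. Their median log2 fold change was 0.43 in M1, 0.69 in M2, 0.07 in M3, 0.21 in M4 and 0.47 in M4.1, against medians over all genes between -0.02 and 0.00. The libraries of a stage did not overlap those of M0 for 3 subunits in M1, 3 in M2, 1 in M3, 3 in M4 and 3 in M4.1, where 30.2%, 30.7%, 25.8%, 29.5% and 35.8% of all genes did not overlap. ITGB6 was called higher in all 5 stages and is in each of these counts and medians, although it passed the filter through the lesions. ITGB1 and ITGA6 were called higher in 4 stages each and ITGA3 in M2. ITGB3 was called lower in M3 and M4. ITGA5, ITGB4 and ITGAV were called in no stage. Without M4.1 replicate 1, 1 subunit was called in M4.1 in place of 3.

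**Figure D1:**
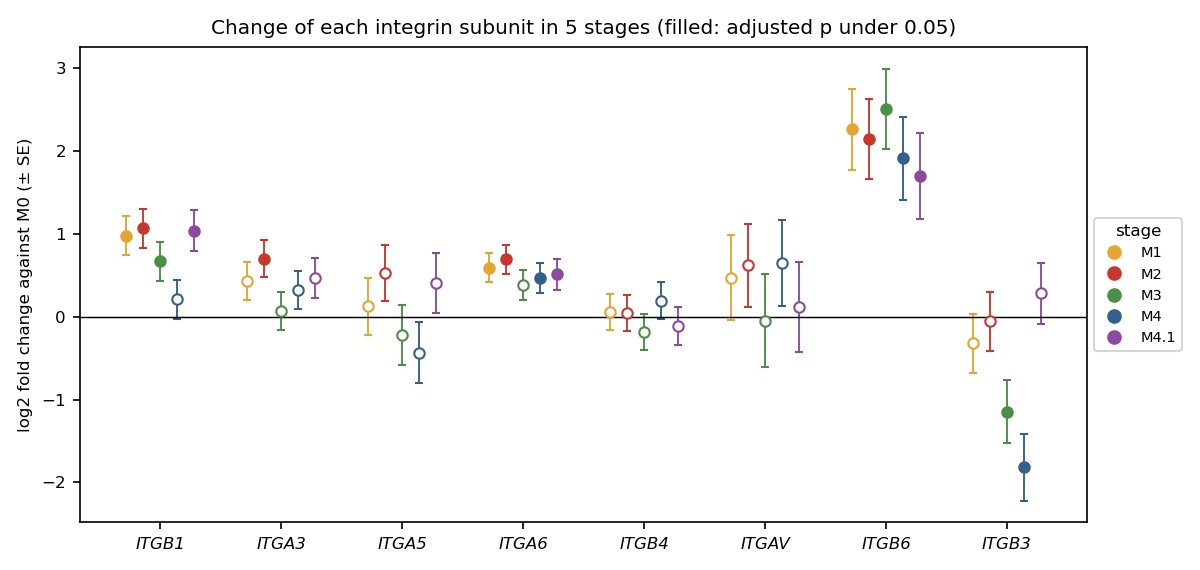
Log2 fold change of each of the 8 subunits in each stage against M0 (y axis, points with bars of 1 SE), with filled points where the adjusted p was under 0.05. ITGB6 lies between 1.70 and 2.51 in every stage, ITGB1 near 1 in M1, M2 and M4.1, ITGB4 between -0.18 and 0.19, and ITGB3 at -1.15 in M3 and -1.82 in M4; ITGAV comes from the fit without a filter.

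ITGB1 (ENSBTAG00000015910), the shared beta chain, was higher in M1, M2, M3 and M4.1 lesions and close to control skin in chronic M4 lesions. It stood at 372, 627, 275, 259 and 454 CPM in M1 libraries and at 566, 354, 376, 429 and 385 CPM in M2 libraries, against 258, 241, 214, 162 and 134 CPM in M0 libraries. Every M1 and M2 library lay above the highest M0 library. It stood at 449.7, 246, 299, 378 and 228 CPM in M3, 155, 285, 221, 242 and 262 CPM in M4 and 506, 327, 333 and 489 CPM in M4.1. The M4.1 libraries did not overlap M0, whereas M3 and M4 did. The log2 fold change was 0.98 ± 0.24 (adjusted p = 0.00141) in M1, 1.07 ± 0.24 (adjusted p = 6.62e-04) in M2 and 1.04 ± 0.25 (adjusted p = 0.00154) in M4.1, where ± is the SE. It was 0.67 ± 0.24 (adjusted p = 0.0257) in M3, and 0.21 ± 0.24 (adjusted p = 0.503) in M4, which is no call. By group mean the order was M2, M4.1, M1, M3, M4 and M0, with 422 ± 85.0 CPM in M2 and 202 ± 52.6 CPM in M0 (SD, n = 5 each). Libraries of neighbours in this order overlapped. The M3 call was lost without M0 replicate 4 or 5 or M3 replicate 1 or 4, with log2 fold changes of 0.50 to 0.60 and adjusted p between 0.0605 and 0.106. Over 8 suprabasal keratinocyte markers, genes of the layers above the basal cells that carry integrins, the sums were 46226 to 220968 CPM in M4 and 3652 to 31198 CPM in M4.1, against 25214 to 41386 CPM in M0. They were 3485 to 55273 CPM in M1, 4318 to 72125 CPM in M2 and 13446 to 174699 CPM in M3, all overlapping M0. The M2 overlap rests on replicate 5, at 72125 CPM. The other M2 libraries held 4318 to 9272 CPM, below all M0 libraries. These sums are mostly KRT1 and KRT10, early keratins of those layers, of which neither was called in any stage. Other members differed from the sum: in M4.1, IVL (involucrin) was called higher, at 3.31 ± 0.45, while LOR (loricrin) was called lower, with 0 counts in M4.1 libraries, against 5.15 to 14.3 CPM in M0 libraries. In M4, 3 of the 8 were called higher and 0 lower, beside 21.3% and 21.1% of all genes. Other scalings, filters, sample sets or tools gave 3 to 7 higher and 0 to 1 lower there. In M2, 2 were called higher and 0 lower, beside 21.7% and 20.5% of all genes. Under those alternatives or with 1 library left out, 0 to 4 were lower in M2. The part of these markers in the level of ITGB1 was not tested.

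**Figure D2:**
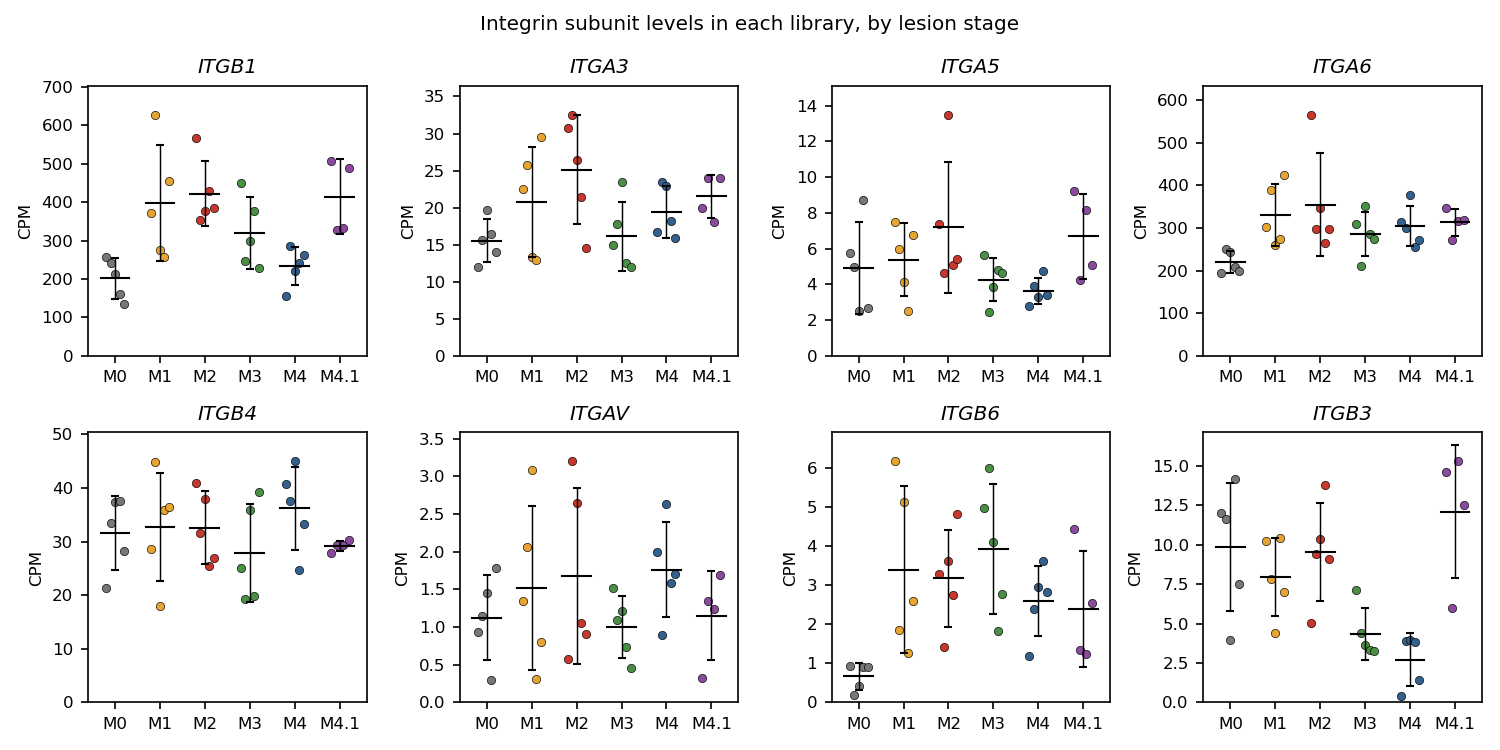
Level of each subunit in CPM (y axis, linear from 0) in each library of M0, M1, M2, M3, M4 and M4.1, with the group mean and SD as bars. All lesion libraries lie above all M0 libraries for ITGB6, the M4 libraries of ITGB1 overlap those of M0, and the M4 libraries of ITGB3 lie at 3.94 CPM or less.

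ITGA3 (ENSBTAG00000019498), the alpha chain that with ITGB1 binds laminin during keratinocyte migration, was called higher in M2. It stood at 30.8, 32.5, 26.5, 21.4 and 14.5 CPM in M2 libraries, against 12, 15.6, 19.7, 16.4 and 14 CPM in M0 libraries. Of the M2 libraries, replicate 5 lay within the M0 range and the other 4 above it. The log2 fold change was 0.70 ± 0.23 (adjusted p = 0.0143). The call was lost without M0 replicate 1 or M2 replicate 1 or 2, at 0.59 to 0.60 with adjusted p between 0.0510 and 0.0519. In the other stages the log2 fold change was 0.43 ± 0.23 in M1, 0.07 ± 0.23 in M3, 0.32 ± 0.23 in M4 and 0.47 ± 0.24 in M4.1, with adjusted p between 0.124 and 0.839 and overlapping libraries throughout. In M4.1 the authors' deposited table, which rests on the M4.1 and M0 libraries alone, gives an adjusted p of 0.0472. The edgeR fit on those 2 groups likewise gave 0.46 with an adjusted p of 0.0434.

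ITGA5 (ENSBTAG00000013745), the alpha chain of the fibronectin receptor, was called in no stage. Its libraries held 7 to 58 counts. It ranged from 2.52 to 7.51 CPM in M1, 4.62 to 13.5 in M2, 2.46 to 5.62 in M3, 2.8 to 4.76 in M4 and 4.25 to 9.21 in M4.1, against 2.49 to 8.74 in M0. All 5 stages overlapped control skin. The log2 fold changes were 0.13 ± 0.35 in M1, 0.52 ± 0.34 in M2, -0.22 ± 0.36 in M3, -0.44 ± 0.37 in M4 and 0.41 ± 0.36 in M4.1, where ± is the SE. Its highest level was 13.5 CPM, in M2 replicate 3.

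The chains of the hemidesmosome pair were called differently. ITGA6 (ENSBTAG00000017266), the alpha chain, was called higher in M1, M2, M4 and M4.1, and ITGB4 (ENSBTAG00000018169), its partner, in no stage. ITGA6 stood at 302, 389.6, 259.5, 275 and 425 CPM in M1 libraries and at 565, 298, 348, 265 and 297 CPM in M2 libraries, against 195, 251, 243, 209 and 199 CPM in M0 libraries. It stood at 309, 211, 351, 286 and 273 CPM in M3, 314, 299, 377, 256 and 273 CPM in M4 and 348, 271, 316 and 319 CPM in M4.1. Every library of M1, M2, M4 and M4.1 lay above all M0 libraries, while M3 replicate 2 lay within the M0 range. The log2 fold change was 0.59 ± 0.18 (adjusted p = 0.00828) in M1 and 0.69 ± 0.18 (adjusted p = 0.00249) in M2. It was 0.47 ± 0.18 (adjusted p = 0.0341) in M4, 0.51 ± 0.19 (adjusted p = 0.0296) in M4.1 and 0.38 ± 0.18 (adjusted p = 0.0882) in M3, which is no call. The M4 call was lost without M0 replicate 1, 4 or 5 or M4 replicate 1 or 3 (0.38 to 0.46, adjusted p 0.0562 to 0.107), and the M4.1 call without M0 replicate 1, 4 or 5 or M4.1 replicate 1, 3 or 4 (0.45 to 0.49, adjusted p 0.0664 to 0.0823). Without M2 replicate 1, the highest library, the log2 fold change of ITGA6, M2 against M0, was 0.44 (adjusted p = 0.0280). Without M3 replicate 2, M3 was called at 0.47 (adjusted p = 0.0413).

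ITGB4 stood at 28.7, 44.9, 18, 35.9 and 36.5 CPM in M1 libraries and at 41.0, 31.6, 38.0, 25.4 and 26.9 CPM in M2 libraries, against 21.3, 33.6, 37.4, 37.5 and 28.3 CPM in M0 libraries. It stood at 25.1, 19.4, 36.0, 19.9 and 39.2 CPM in M3, 40.7, 37.5, 45.0, 24.7 and 33.4 CPM in M4 and 27.9, 29.4, 29.3 and 30.3 CPM in M4.1. All 5 stages overlapped M0, and the M4.1 libraries lay closest together. The log2 fold changes were 0.06 ± 0.22, 0.05 ± 0.22, -0.18 ± 0.22, 0.19 ± 0.22 and -0.11 ± 0.23 from M1 to M4.1, with adjusted p between 0.506 and 0.882.

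The balance of the pair was measured within each library as log2 CPM of ITGA6 minus log2 CPM of ITGB4, which does not depend on the scaling of libraries. The difference between genes is not a ratio of molecules, so it is compared across groups alone. It was 3.37, 3.11, 3.82, 2.92 and 3.52 in M1 libraries and 3.77, 3.22, 3.18, 3.36 and 3.44 in M2 libraries, against 3.16, 2.89, 2.68, 2.47 and 2.8 in M0 libraries. It was 3.60, 3.41, 3.27, 3.82 and 2.79 in M3, 2.93, 2.98, 3.06, 3.35 and 3.01 in M4 and 3.62, 3.19, 3.41 and 3.37 in M4.1. The M2 and M4.1 libraries lay above all M0 libraries, and M1, M3 and M4 overlapped them. The mean exceeded that of M0 by 0.55 in M1, 0.59 in M2, 0.58 in M3, 0.27 in M4 and 0.60 in M4.1. Two-sided exact permutation tests gave p = 0.0317, 0.00794, 0.0317, 0.0952 and 0.0159 in that order, of which those for M2 and M4.1 are the smallest that groups of this size allow. None was under 0.05 after adjustment over the 35 ratio comparisons made (7 subunit pairs in 5 stages), with adjusted p between 0.139 and 0.201. With groups of 4 or 5 libraries, a ratio at the smallest p possible cannot by itself pass that adjustment. The adjusted values therefore cannot decide whether the balance differed. Of all 35 ratio comparisons, 0 had an adjusted p under 0.05.

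**Figure D3:**
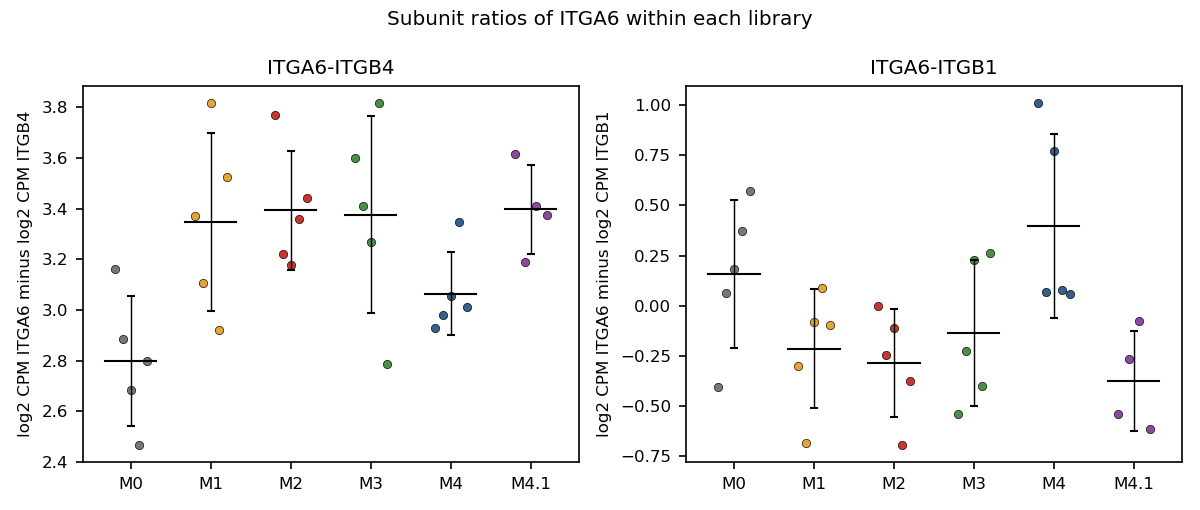
Log2 CPM of ITGA6 minus that of ITGB4 (left) and of ITGB1 (right) in each library (y axes, not starting at 0), with group means and SD. Against ITGB4 the M2 and M4.1 libraries lie above all M0 libraries; against ITGB1 every stage overlaps M0, and M4 replicates 1 and 3 lie highest, at 1.01 and 0.77.

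ITGA6 was also set against ITGB1, its other partner. The same within-library difference was -0.37, -0.44, -0.29, 0.24 and -0.53 relative to M0 from M1 to M4.1, with adjusted p between 0.185 and 0.454 by the exact permutation test. All 5 stages overlapped control skin.

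Of the other genes of the hemidesmosome and its laminin, 6 were tested. In none of the stages was a gene of the list called higher, where 20.2% to 21.9% of all genes were. Called lower were 1 in M1, M2 and M4 and 2 in M3 and M4.1, beside 18.9% to 21.1% of all genes. With 6 genes, these counts by themselves say nothing particular about the hemidesmosome. DST, which encodes the epithelial plakin that links the hemidesmosome to keratin filaments and has long forms in muscle and nerve, fell in all 5 stages, by 1.77 ± 0.40 in M1, 1.55 ± 0.39 in M2, 1.74 ± 0.40 in M3, 2.29 ± 0.43 in M4 and 1.51 ± 0.42 in M4.1 on the log2 scale (adjusted p between 8.83e-05 and 0.00508). PLEC (plectin) was called lower in M3, at -0.55 ± 0.21 (adjusted p = 0.0363). COL17A1 (the collagen of the hemidesmosome) was called lower in M4.1, at -0.49 ± 0.19 (adjusted p = 0.0464). CD151, LAMA3 and LAMB3 were called in none of the stages. The 2 genes called in M3 became 1 without M0 replicate 3 or 4 or M3 replicate 2, 4 or 5, and the 2 in M4.1 became 1 without M0 replicate 2 or 3 or M4.1 replicate 2, 3 or 4. The list median lay between -0.40 and -0.11 across the stages, against -0.02 to 0.00 over all genes.

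Among 8 tested genes of other laminins and the basement membrane, COL4A1, a chain of type IV collagen, rose by 1.08 ± 0.25 in M1, 1.51 ± 0.25 in M2, 0.81 ± 0.25 in M3 and 1.31 ± 0.26 in M4.1, and stood at 0.47 ± 0.25 (adjusted p = 0.130) in M4. LAMA2 and LAMB2, laminin chains of muscle, nerve and vessel basement membranes, were lower in all 5 stages, LAMA2 at -2.49, -2.07, -1.90, -3.08 and -1.61 and LAMB2 at -1.64, -1.36, -1.35, -1.83 and -1.53 from M1 to M4.1.

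ITGB6 (ENSBTAG00000009080), the beta chain restricted to epithelia, was scarce in control skin and higher in every stage. It stood at 6.17, 1.85, 5.14, 1.26 and 2.59 CPM in M1 libraries and at 3.29, 1.42, 3.61, 2.75 and 4.84 CPM in M2 libraries, against 0.933, 0.191, 0.415, 0.904 and 0.895 CPM in M0 libraries. It stood at 4.97, 6.01, 4.11, 1.84 and 2.77 CPM in M3, 1.2, 2.4, 2.95, 3.63 and 2.83 CPM in M4 and 4.44, 1.35, 1.24 and 2.54 CPM in M4.1. All 24 lesion libraries lay above all 5 M0 libraries. Because ITGB6 passed the filter through the lesions, this separation and the p-values below are a description and no independent support for a rise. The counts behind these levels were small, 3 to 23 per lesion library and 1 to 6 per M0 library, 20 in M0 in all. The log2 fold change was 2.26 ± 0.49 (adjusted p = 4.42e-04) in M1, 2.14 ± 0.49 (adjusted p = 8.08e-04) in M2 and 2.51 ± 0.49 (adjusted p = 1.68e-04) in M3. It was 1.91 ± 0.50 (adjusted p = 0.00303) in M4 and 1.70 ± 0.52 (adjusted p = 0.0111) in M4.1. The M4.1 call was lost without M4.1 replicate 1, at 1.28 (adjusted p = 0.0693). By group mean the order was M3, M1, M2, M4, M4.1 and M0, and all pairs of lesion stages overlapped.

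ITGAV (ENSBTAG00000019929), the alpha chain that pairs with ITGB6, was called in no stage at its depth of 19 to 40 counts per group. It ranged from 0.315 to 3.08 CPM in M1, 0.580 to 3.2 in M2, 0.461 to 1.51 in M3, 0.901 to 2.63 in M4 and 0.317 to 1.70 in M4.1, against 0.301 to 1.79 in M0. All 5 stages overlapped M0. In the fit without a filter the log2 fold changes were 0.47 ± 0.51, 0.62 ± 0.50, -0.05 ± 0.56, 0.65 ± 0.52 and 0.12 ± 0.54 from M1 to M4.1 (adjusted p between 0.334 and 0.955). A difference of the size of these SEs was not detectable at this depth.

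The TGF-beta list, of genes that hold, sense or answer the cytokine released by ITGAV with ITGB6, had 9 tested members of 14. SMAD2, a signal carrier of the TGF-beta receptors, rose in all 5 stages, by 0.64, 0.82, 0.69, 0.64 and 0.51 from M1 to M4.1. SMAD7, which dampens TGF-beta signalling, was called higher in M4 alone among the stages, at 0.64 ± 0.21 (adjusted p = 0.0153). In M4, 4 members were called lower, chosen for naming after their values were seen: LTBP1 (-0.75) and LTBP2 (-0.98), which tether latent TGF-beta to the matrix, TGFB3 (-1.21) and the receptor TGFBR2 (-0.74). Called members numbered 2 higher and 1 lower in M1, M2 and M4.1, 1 and 1 in M3 and 2 and 4 in M4. Over all genes, 20.2% to 21.9% were higher and 18.9% to 21.1% lower, so apart from the 4 lower in M4 these counts are near or under the share over all genes. The list median was -0.40, -0.12, -0.34, -0.47 and -0.30 from M1 to M4.1, all below the medians over all genes. The 4 lower in M4 became 2 without M0 replicate 5 or M4 replicate 1, 3, 4 or 5. TGFB1 and TGFBR1 are in none of the tables.

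ITGB3 (ENSBTAG00000009987), the beta chain of the vitronectin receptor, was the 1 subunit called lower, in healing and chronic lesions. It stood at 7.13, 4.37, 3.62, 3.32 and 3.23 CPM in M3 libraries and at 0.399, 3.90, 3.94, 3.85 and 1.41 CPM in M4 libraries, against 12, 11.6, 3.94, 14.2 and 7.52 CPM in M0 libraries. All M4 libraries lay below all M0 libraries, although by a narrow margin, since the highest M4 and the lowest M0 library both round to 3.94 CPM, and M3 overlapped M0. It stood at 10.2, 7.82, 4.37, 10.4 and 6.98 CPM in M1, 5.03, 9.41, 10.3, 13.8 and 9.07 CPM in M2 and 14.6, 5.99, 15.3 and 12.5 CPM in M4.1, all overlapping M0. M4 replicate 1 held 1 count and the other libraries 5 to 94. The log2 fold change was -1.82 ± 0.40 (adjusted p = 6.06e-04) in M4 and -1.15 ± 0.38 (adjusted p = 0.0176) in M3. It was -0.32 ± 0.36 in M1, -0.06 ± 0.35 in M2 and 0.28 ± 0.37 in M4.1, with adjusted p between 0.490 and 0.912. The M3 call was lost with limma-voom, at -1.05 (adjusted p = 0.0551).

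ITGB3 was also the 1 subunit called in a test of any difference among the 5 lesion stages (adjusted p = 0.0319), where 2.58% of all genes were called. In M4.1 its libraries lay wholly above those of M4, with a log2 fold change of 2.1 ± 0.42 (adjusted p = 0.0198) for M4.1 against M4. Set against M2, M4 was lower by 1.76 ± 0.41 on the log2 scale (adjusted p = 0.0324), again without overlap, and this call was lost with limma-voom (-1.89, adjusted p = 0.0558) and without M2 replicate 2, 3 or 4 or M4 replicate 1, 3 or 5 (-1.91 to -1.53, adjusted p 0.0569 to 0.0815). The call for M4.1 against M4 was lost without M4 replicate 1 or 5 or M4.1 replicate 3 (1.87 to 1.96, adjusted p 0.0526 to 0.0671). The call among the lesion stages was lost in the fit of lesion libraries alone (adjusted p = 0.0686) and with limma-voom (0.0769), and without M4 replicate 1, 3 or 5 or M4.1 replicate 3.

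Transcripts of smooth muscle and some of those of vessels were also low in M4. All 6 smooth muscle markers were called lower in M4 and in M3, 4 in M2, 5 in M1 and 3 in M4.1, beside 18.9% to 21.1% of all genes. Their summed level was 106 to 314 CPM in M4 and 357 to 827 CPM in M4.1, against 504 to 1239.6 CPM in M0. Without M4.1 replicate 1, 5 were lower in M4.1. Over 8 of 9 endothelial markers (TIE1 is in none of the tables) the sums were 98.8 to 113 CPM in M4 and 140.4 to 199 CPM in M4.1, against 125 to 231 CPM in M0. Of the 8, 3 were called lower and 0 higher in M4 against M0, beside 21.1% and 21.3% of all genes. PECAM1, an endothelial adhesion molecule, was called lower in M4 against M0, at -1.14 ± 0.25, and higher in M4.1 against M4, at 0.96 ± 0.26 (adjusted p = 0.0389). KDR, a receptor for vascular growth factor, was called higher in M4.1 against M4, at 0.94 ± 0.26 (adjusted p = 0.0389). These 2 calls became 0 without M4 replicate 1, 3, 4 or 5 or M4.1 replicate 1, 3 or 4. Over 7 fibroblast markers the sums were 1960.1 to 3208 CPM in M4 and 2712 to 6084 CPM in M4.1, against 842 to 4805 CPM in M0. The members of this sum went different ways, with 3 called lower in M4 and 1 higher, beside 21.1% and 21.3% of all genes. PDGFRA and FBLN1 averaged 33.6 and 40.1 CPM in M4, against 71.4 and 104 CPM in M0. COL1A1 and COL3A1 averaged 1015 ± 312 and 860 ± 214 CPM in M4, against 668 ± 722 and 432 ± 408 CPM in M0 (SD), so the M0 libraries varied widely. With 1 library left out, 0 to 2 fibroblast markers were called higher in M4 and 2 to 3 lower. Over 7 macrophage markers the sums were 29.2 to 100.4 CPM in M4 and 75.9 to 150.2 CPM in M4.1, against 35.5 to 163 CPM in M0, and over 7 leukocyte markers 47.5 to 165 CPM in M4 and 109.5 to 279 CPM in M4.1, against 56.7 to 175 CPM in M0. None of the 6 platelet markers is in any of the tables, and none of the smooth muscle, endothelial or fibroblast markers tested was at 0 in a whole group. The part of these cell types in the level of ITGB3 was not tested.

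**Figure D4:**
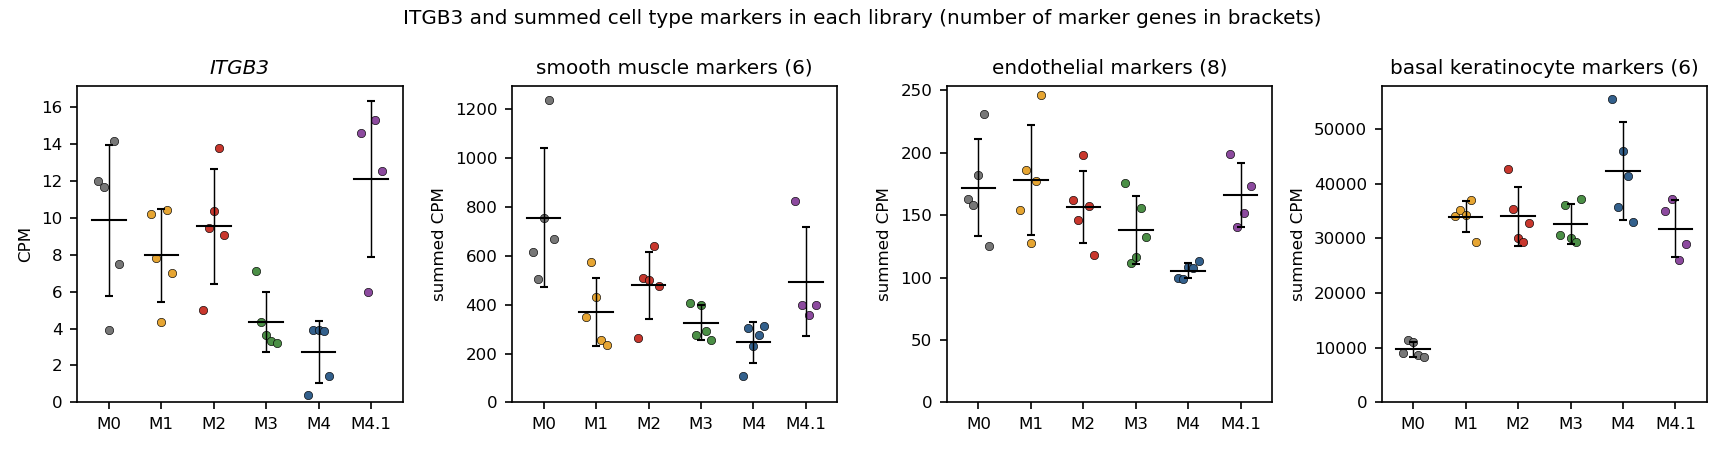
ITGB3 and the summed smooth muscle, endothelial and basal keratinocyte markers in CPM (y axes from 0) in each library, with group means and SD. The M4 libraries are low for ITGB3 (0.399 to 3.94 CPM) and for endothelial markers (98.8 to 113 CPM), while the basal keratinocyte sum, nearly all KRT5 and KRT14, is higher in all lesion libraries than in M0.

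Between lesion stages few subunits were called. Of the 7 tested, M4.1 against M4 had 1 higher and 0 lower, beside 2.25% of all genes higher, 2.05% lower and 4.3% either way. M4 against M2 had 0 higher and 2 lower, beside 1.79%, 1.32% and 3.11%. ITGB1 fell in M4 against M2, by 0.86 ± 0.24 (adjusted p = 0.0439), and its M4 libraries lay below all M2 libraries. That call was lost when any of M2 replicates 1 to 4 or M4 replicates 1, 3, 4 and 5 was left out (-0.91 to -0.73, adjusted p 0.0587 to 0.126). ITGB1 was 0.83 ± 0.25 (adjusted p = 0.0527) in M4.1 against M4, without overlap and without a call. It was called there by DESeq2 at 0.82 (adjusted p = 0.0229), in the fit of the 2 groups alone at 0.83 (0.0408), and without M4 replicate 2 (0.91) or M4.1 replicate 2 (0.93). ITGA5 was -0.96 ± 0.36 in M4 against M2 (adjusted p = 0.112). ITGA6, ITGB4, ITGB6 and ITGA3 were called in no comparison of lesion stages.

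For neighbouring stages edgeR called 0 of 7 subunits in M2 against M1, in M3 against M2 and in M4 against M3, beside 0% of all genes in each. At an unadjusted p under 0.05 there were 0, 3 and 0 subunits, beside 417, 923 and 715 of all genes. DESeq2 and limma-voom also called 0 subunits in these 3 comparisons. Of all genes they called 0, apart from 2 by DESeq2 in M4 against M3. The 3 in M3 against M2 were ITGA3 (-0.63), ITGA5 (-0.75) and ITGB3 (-1.09), each with an adjusted p of 0.523 or more.

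The matrix ligands of the fibronectin and ITGAV receptors went different ways. FN1 (fibronectin), the ligand of ITGA5 with ITGB1, rose by 0.84 ± 0.25 in M2 and 0.74 ± 0.26 in M4.1 (adjusted p = 0.00737 and 0.0242), and was called in no other stage. It was also higher in M4.1 against M4, at 0.98 ± 0.26 (adjusted p = 0.0356). SPP1 (osteopontin), a ligand of the ITGAV receptors, fell in all 5 stages, at -5.47, -3.14, -4.40, -5.39 and -2.65 from M1 to M4.1, and was higher in M4.1 against M4, at 2.74 ± 0.75 (adjusted p = 0.0386). POSTN (periostin), another such ligand, fell in all 5 stages, at -2.20, -1.08, -1.95, -2.34 and -1.78. Of 10 tested ligands, 3 were called higher in M2 and 2 in M4.1, where 21.7% and 20.2% of all genes were, and 0 in M1, M3 and M4. The others among these, named after their values were seen, were TNC (tenascin C, 1.71 in M2 and 1.77 in M4.1) and THBS1 (thrombospondin, 0.84 in M2). Called lower were 3 in M1 and 2 in each later stage, beside 18.9% to 21.1% of all genes. The counts of 2 and 3 are near the share over all genes. The median log2 fold change of the ligands was -0.12, 0.30, -0.20, -0.32 and 0.43 from M1 to M4.1, against -0.02 to 0.00 over all genes. The 2 ligands called in M4.1 against M4 became 0 without M4 replicate 1 or 5 or M4.1 replicate 3 or 4.

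Inside the cell, integrins connect to actin through adaptors. Of 23 tested adaptor genes, 6 were higher and 5 lower in M1, 8 and 3 in M2, 8 and 4 in M3, 7 and 5 in M4 and 8 and 3 in M4.1. Over all genes, 20.2% to 21.9% were higher and 18.9% to 21.1% lower, so the counts by themselves say nothing particular about adaptors. The 8 in M3 became 3 without M0 replicate 1, 2 or 5 or M3 replicate 3, and 5 without M3 replicate 1. The median over the adaptors was 0.21, 0.34, 0.23, 0.06 and 0.34 from M1 to M4.1 on the log2 scale. ACTN1, an actinin that cross-links actin at adhesions, rose in all 5 stages, by 1.55, 1.74, 1.19, 1.33 and 1.71 from M1 to M4.1. TLN2, the talin of muscle and brain, fell at -2.21, -2.88, -1.41, -1.50 and -2.65. TNS1, a tensin of fibroblast and muscle adhesions, fell at -1.51, -1.44, -1.63, -1.73 and -1.24. FERMT1, the kindlin of keratinocytes, which switches ITGB1 integrins on, was named after its values were seen. It was 1.79 ± 0.37 in M1, 1.72 ± 0.37 in M2, 0.97 ± 0.37 in M3 and 1.59 ± 0.38 in M4.1, all called, and 0.54 ± 0.37 (adjusted p = 0.253) in M4.

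Of the other integrin chains, 7 were tested. In each stage 1 was called higher and 1 or 2 lower, beside 20.2% to 21.9% and 18.9% to 21.1% of all genes, so these counts are near that share. ITGA1, a collagen receptor chain that pairs with ITGB1, rose in all 5 stages, by 0.73, 1.17, 1.02, 1.15 and 1.19 from M1 to M4.1. ITGA7, a laminin receptor chain of muscle, fell in all 5, at -1.92, -1.91, -1.99, -2.26 and -1.50. The smooth muscle markers moved the same way, and their part in this was not tested. ITGB7, a chain of lymphocyte homing receptors, was called lower in M2 (-1.23) and M3 (-1.16). The 2 chains called lower in M3 became 1 without M0 replicate 2 or 3 or M3 replicate 2, 3 or 5. ITGA9, which binds tenascin, was called in no stage, at -0.07, 0.35, -0.06, -0.38 and -0.76. ITGA2, ITGB2 and ITGB5 were likewise called in none.

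**Figure D5:**
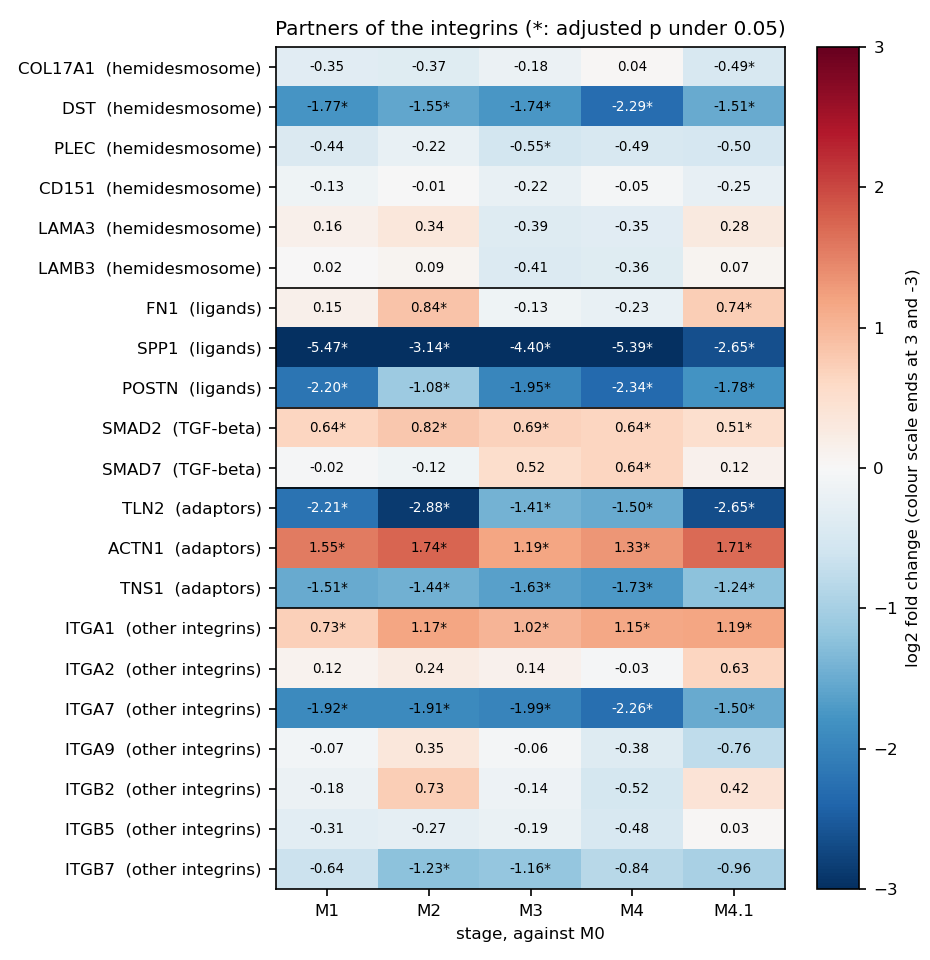
Log2 fold change against M0 in each stage (columns) of integrin partners (rows, by list), printed in each cell, with an asterisk where the adjusted p was under 0.05. All tested hemidesmosome genes and other integrins are drawn, and of the ligands, TGF-beta genes and adaptors up to 3 of those with the smallest p over the 5 stages; DST, SPP1, POSTN, TLN2, TNS1 and ITGA7 are lower in every stage and SMAD2, ACTN1 and ITGA1 higher in every stage.

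The genes whose levels ran most like each subunit were ranked by Pearson correlation of log2 CPM, as a description. The libraries share groups, composition and depth, so high values are common. ITGB1 ran most like RAP1B, a small GTPase that switches integrins on, with r = 0.86 over 29 libraries and 0.86 over the 24 lesion libraries. PLAU, the urokinase plasminogen activator (0.83), and PNO1 (0.83) followed over all libraries. ITGB3 ran most like FGF7 (0.83), SERPING1 (0.83) and SPARCL1 (0.82) over 29 libraries, and like IGFBP4 (0.90), VCAN (0.88) and SPARCL1 (0.88) among lesions. ITGA3 ran most like PRMT1 (0.80) and ARL3 (0.77) over all libraries, and like ACTN1 (0.87), PRC1 (0.86) and CCT5 (0.81) among lesions. ITGA6 ran most like SSRP1 (0.83), PFKL (0.79) and DCBLD2 (0.79), and ITGA5 like GNAI2 (0.77), PICALM (0.76) and RAB31 (0.74). The most alike for ITGB4 was NELFB (0.67) and for ITGAV PPP6R1 (0.61). ITGB6 ran most like HINT1 (0.80) over 29 libraries, but among the lesions its highest value was 0.62, with NDUFA6.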

How the data were processed

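Messenger RNA 3′ ends were sequenced in 29 bovine skin biopsies of 6 groups. The authors deposited 5 tables, each with whole-number counts per gene for 1 stage and the same M0 libraries, and listing genes over a minimum level only. The submitters' processing notes name FastQC 0.11.7, cutadapt 2.8, STAR, RSEM 1.3.1, edgeR and the ARS-UCD1.2 build, without roles. Whether estimated counts were rounded is not given in the sources used here. A normalised signal, group means and p-values of the authors' comparisons are also in the deposited tables. Of these, the adjusted p-value of ITGA3 in M4.1 is printed and the signal was not tested.

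The counts were joined over the 10629 genes in all 5 tables. Stages were compared by the quasi-likelihood test of edgeR 4.0.16 (R 4.3.3) with TMM scaling, 1 fit over all 29 libraries, no covariates, and Benjamini-Hochberg adjustment over the 10371 genes that passed its default filter, which left out 258. SEs were computed as the absolute log2 fold change divided by the square root of the F statistic and are approximate. DESeq2 1.42.0, limma-voom (limma 3.58.1), other filters, scalings and sample sets were alternatives. Subunit ratios within a library were tested by exact permutation. Scripts were tested on simulated data with 200 changed genes; Python 3.11.15, pandas 2.3.3 and matplotlib 3.10.9 were used for tables and figures.

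Library totals were 2858186 to 5399615 counts, so genes with few counts carry a large counting error. The named genes are the 8 subunits, up to 3 genes of each pathway list with the smallest p in any stage, and the 3 genes most like each subunit by Pearson correlation among genes with a mean log2 CPM over 3. The subunits and lists were chosen with earlier results of these data known. Some genes that this rule names are not reported here. Gene coordinates and sequences are not used here.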

Additional observations from a re-analysis of the deposited data

Results flagged for a closer look

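ITGA6 in M2 replicate 1 stood at 565 CPM, apart from the other 4 M2 libraries at 265 to 348 CPM. It is 1 of 48 groups of libraries examined for such a gap, and chance alone would mark about 1 in 20. Without that library the log2 fold change of ITGA6, M2 against M0, was 0.44 (adjusted p = 0.0280).

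Differences between lesion stages that passed the edgeR test were 2.1 on the log2 scale for ITGB3 in M4.1 against M4, -0.86 for ITGB1 in M4 against M2 and -1.76 for ITGB3 in M4 against M2. In each case the libraries of the 2 stages did not overlap.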

How the results depend on the processing

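Of 377 fold changes of subunits recomputed under other scalings, filters, sample sets or tools, 369 kept their direction and their side of the threshold, as did 419 of 479 with 1 library left out. The same held for 20 of 20 and 195 of 196 subunit ratios. With groups of this size the ratios could hardly cross the threshold, so this speaks to their direction alone. Of the counts of called subunits, 80 of 89 and 133 of 151 stayed within 1.5 times. For M4.1 against M4 the count of 1 became 2 with at least 10 counts required in at least 10 libraries, with DESeq2 and with the 2 groups alone, and 0 to 2 with 1 library left out. For M4 against M2 the count of 2 became 1 with limma-voom and 0 to 2 with 1 library left out. For any difference among the lesion stages the count of 1 became 0 with limma-voom and in the lesion libraries alone, 2 with DESeq2, and 0 to 1 with 1 library left out. For M4.1 against M0 the count was 1 to 3 with 1 library left out. ITGAV in M3 changed sign with limma-voom, at 0.19. With 1 library left out, uncalled values near 0 changed sign: ITGA5 (-0.048 to 0.41) and ITGB4 (-0.084 to 0.21) in M1, ITGB3 (-0.26 to 0.088) and ITGB4 (-0.091 to 0.13) in M2, ITGA3 (-0.12 to 0.17), ITGA5 (-0.40 to 0.065) and ITGAV (-0.28 to 0.21) in M3, ITGAV in M4.1 (-0.11 to 0.38) and the log2 ratio ITGA3-ITGB1, M4 against M0 (-0.0935 to 0.209). The cause was not tested. Over all genes, M4.1 against M4 gave 446 calls with edgeR, 168 with limma-voom and 955 with DESeq2, M4 against M2 gave 323, 315 and 845, and the test among lesion stages gave 268, 3 and 878. Without a value were 5 results, for which DESeq2 gave no adjusted p. The alternatives for subunits listed in some tables only were not run, since all 8 are in all 5 tables. Depth limits ITGAV, ITGB6, ITGA5 and ITGB3, with at most 18, 23, 58 and 94 counts in a library.

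The replicate numbers of the labels did not pair the libraries: deviations of same-numbered libraries correlated over 0.1 in 17 of 70 pairs (-0.359 to 0.414, median -0.0129). With the replicate number as a block, the count for M4 against M2 became 1, ITGB1 losing its call at -0.83 (adjusted p = 0.0598), and that for any difference among the lesion stages became 0. Over all genes the block gave 46 calls for M4.1 against M4, 62 for M4 against M2 and 1 among the lesion stages.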
